A study of Homo sapiens with 4 samples.

Results

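The genes described here are 10 genes of the actin cytoskeleton that are known as actin or as targets and partners of serum response factor (SRF), among 28278 listed genes: *ACTB*, *ACTG1*, *SRF*, *TAGLN*, *TAGLN2*, *TPM1*, *TPM2*, *TPM4*, *FLNA* and *CFL1*. They were selected by function with it already known that *ACTB* was lower in the sgUSP22 libraries, so their differences between the groups are given as a description and without a test. RNA-seq was performed on HepG2 cells, a human hepatocellular carcinoma line, that had been infected with lentivirus carrying Cas9 and either a control sgRNA (control) or an sgRNA against *USP22* (sgUSP22), a deubiquitinase of histones and other proteins. All cells of both groups were then given Sorafenib, a multikinase inhibitor, for 24 h, so that no untreated cells enter the comparison. Each group had 2 libraries, and the knockout cells were a stable, puromycin-selected population made with a single sgRNA.

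Actin monomers assemble into filaments that crosslinkers such as filamin tie together, tropomyosins coat and cofilin severs. SRF binds a short DNA element called the CArG box and works with myocardin-related transcription factors (MRTFs), which free actin monomers hold back, or with ternary complex factors (TCFs), which respond to growth factor signalling through ERK. MRTF partners are known for driving cytoskeletal genes, among them actins and *SRF* itself, whereas TCF partners drive immediate early genes such as *EGR1* and *FOS*.

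Total counts lay between 62030307 and 64728272, and 15150 genes had enough counts to be tested, all 10 actin and SRF genes among them. *USP22* had 16450 and 16537 counts in control and 20279 and 20368 in the libraries labelled sgUSP22 (log2 fold change 0.22, SE 0.034, adjusted p = 0.000394 in edgeR's quasi-likelihood F-test, Benjamini-Hochberg adjusted), so the sgUSP22 label was not matched by less *USP22* transcript, and every direction below follows the label. The study checked the knockout by Western blot, a measure of protein, which transcript counts do not show. Of 14 hepatocyte and HepG2 markers, 7 were listed at 0 in all libraries, including *ALB*, *APOA1* and *TTR*, and *AFP* had at most 4 counts, so the data do not show the liver genes that the label HepG2 leads one to look for. The summed level of these markers, carried by the keratins *KRT8* and *KRT18*, was 1726 to 1761 CPM in control and 1343 to 1394 CPM in sgUSP22. CPM are counts scaled to library size alone for the marker sums of this paragraph. In later paragraphs they are scaled to library size and TMM factors unless stated. Of 11 fibroblast and smooth muscle markers, *PDGFRA* was at 0 in all libraries, and the sum was 645 to 652 CPM in control and 918 to 925 CPM in sgUSP22, with *COL3A1* the most counted. Its genes went both ways, with 624 and 585 counts of *DCN* in control and 5191 and 4996 in sgUSP22, but 1020 and 986 counts of *FAP* in control and 189 and 187 in sgUSP22. The 6 leukocyte markers summed to 72.5 CPM in each control library and to 44.8 to 47.6 CPM in sgUSP22, nearly all from *CD68*, with *CD3E* and *LYZ* among those at 0. The 6 endothelial markers summed to at most 0.645 CPM, with *KDR* and *CLDN5* at 0. The part of these markers in the actin results was not tested, and in bulk RNA fewer cells of a type and less RNA per cell cannot be told apart.

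The CArG box is the DNA letter pattern through which SRF is known to act, so the promoters that hold it are shown here, with the box in capitals. RefSeq promoters (250 bases before to 50 bases after a transcript start, GRCh38.p14) were found for 8 of the 10 genes, all except *ACTB* and *TAGLN*. A CArG box, which reads as the same pattern on either strand, was present for 4 of these 8 genes, against 438 of 27305 genes with a promoter, or 1.6%. Each stretch is printed 5′ to 3′ on the strand of its gene. *EGR1* is added as the immediate early gene with the clearest change below.
ACTG1: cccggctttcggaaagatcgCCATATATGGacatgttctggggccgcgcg
SRF: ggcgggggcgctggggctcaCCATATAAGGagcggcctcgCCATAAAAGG
TPM4: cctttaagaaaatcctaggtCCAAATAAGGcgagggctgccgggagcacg
FLNA: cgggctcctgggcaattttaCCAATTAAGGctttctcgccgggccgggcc
EGR1: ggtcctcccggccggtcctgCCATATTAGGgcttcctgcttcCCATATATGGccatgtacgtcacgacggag
The *ACTG1* stretch lies at chr17:81512864-81512913 on the minus strand, with its box 94 bases before the start and within an intron of a longer *ACTG1* transcript in GENCODE. The *SRF* stretch lies at chr6:43171219-43171268 on the plus strand and has 2 boxes, 30 and 10 bases before the start of 1 of 2 RefSeq promoters. The *TPM4* stretch lies at chr19:16067345-16067394 on the plus strand, in an intron of a longer *TPM4* transcript, with its box 173 bases before the start of 1 of 3 RefSeq promoters. The *FLNA* stretch lies at chrX:154374699-154374748 on the minus strand, with its box 94 bases before the start, and overlaps an exon of an unnamed GENCODE gene. The *EGR1* stretch lies at chr5:138465354-138465425 on the plus strand, with boxes 105 and 83 bases before the start. No box was found in the windows of *TAGLN2*, *TPM1*, *TPM2* and *CFL1*, nor in those of *FOS* and *GAPDH*, which says only that the letters are not in these 300 bases. A match is a stretch of letters and not a measured binding site.

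The 10 genes together were a smaller share of the counted RNA in sgUSP22. They made up 1.35% and 1.37% of all counts in the control libraries and 0.977% and 0.968% in the sgUSP22 libraries, with exact 95% binomial intervals no wider than 1.366 to 1.372% in any library, which cover counting error only. In log2 fold change, 9 of the 10 genes were lower in sgUSP22 and *SRF* was not, although *TPM4* was higher by 0.02 when libraries were scaled by size alone, and *TPM4* and *TAGLN2* were higher when scaled to *GAPDH*. The median log2 fold change was -0.45, and -0.43 without *ACTB*, where the median of all tested genes was 0.00. A correction for GC content and transcript length, called the GC and length correction hereafter, moved this median to -0.27.

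Of the 10 genes, 3 were lower by the thresholds used for all genes, at least 1.5-fold with an adjusted p-value under 0.05 ("called" hereafter), where 7.25% of all tested genes were called lower. None of the 10 was called higher, where 8.88% of all tested genes were. Without the fold change threshold, 8 of the 10 were past the adjusted p-value on the lower side and 0 on the higher side, where 25.8% and 26.8% of all tested genes were. The sgUSP22 libraries lay below both control libraries for 9 of the 10 genes, which held for 37.6% of all tested genes. Since the genes were selected with *ACTB* known to be lower, nothing is read from these counts. The 1.5-fold threshold fell between *TPM1*, 1.53-fold lower, and *FLNA*, 1.45-fold lower.

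**Figure D1:**
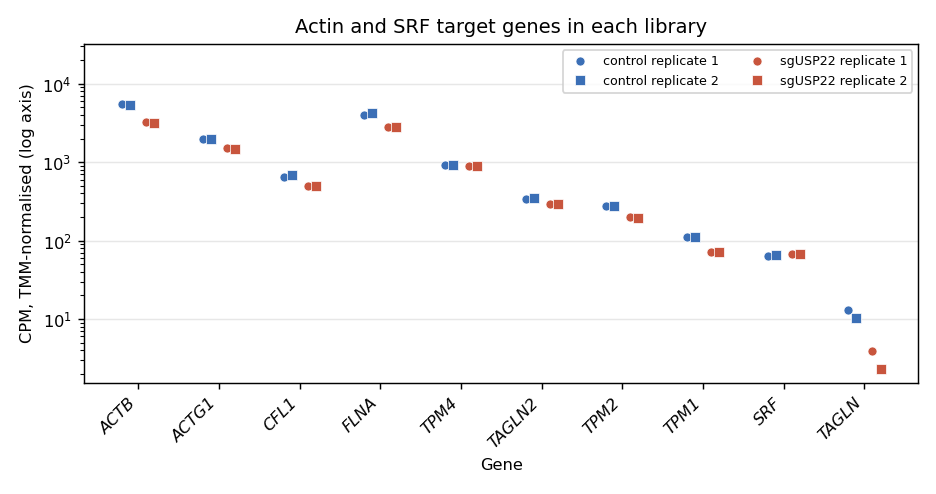
Level of each gene in each of the 4 libraries, in CPM scaled by TMM factors on a log axis, ordered by level per kilobase in control; blue points are control and red points sgUSP22 libraries. For 9 genes both red points lie below both blue points, with *TAGLN* farthest apart, whereas those of *SRF* lie slightly above.

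*ACTB* encodes β-actin, the main actin of non-muscle cells, and lies on the minus strand at chr7:5526409-5563902 (hg38). Control libraries held 331941 and 333425 *ACTB* counts, and sgUSP22 libraries held 210981 and 205130. Both sgUSP22 libraries were low and the groups did not overlap. The level was 5394 ± 70.2 CPM (SD, n = 2) in control and 3194 ± 23.4 CPM (SD, n = 2) in sgUSP22, or 59.2% of control, a log2 fold change of -0.76 (SE 0.024). The 4 differences between an sgUSP22 and a control library ran from -0.78 to -0.73 on the log2 scale, whereas the controls differed from each other by 0.027 log2 units at most. *ACTB* ranked 2nd among all genes by counts in both control libraries and 4th in both sgUSP22 libraries.

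*ACTG1*, on the minus strand at chr17:81509413-81523847, encodes γ-actin, the other cytoplasmic actin. Its counts were 121371 and 123386 in control and 100550 and 95876 in sgUSP22. Both sgUSP22 values were again below both controls, by less than for *ACTB*. The level was 1984 ± 8.99 CPM (SD, n = 2) in control and 1508 ± 31.8 CPM (SD, n = 2) in sgUSP22, or 76.0% of control (log2 fold change -0.40, SE 0.028). There were 2.73 and 2.70 counts of *ACTB* for each count of *ACTG1* in control, and 2.10 and 2.14 in sgUSP22. The ratio of these near-identical proteins' transcripts was therefore lower in both sgUSP22 libraries than in either control library, a comparison within each library that does not depend on scaling. *ACTB* was also lower against *GAPDH*, the glycolytic enzyme often used as a reference transcript, with 1.30 counts for each *GAPDH* count in both control libraries and 0.888 and 0.922 in sgUSP22. *GAPDH* itself was lower in sgUSP22, at 4146 CPM in control and 3533 CPM in sgUSP22 (log2 fold change -0.23, adjusted p = 9.64e-05 in the edgeR F-test), although not with the GC and length correction (-0.05, adjusted p = 0.0973).

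Reads of the actin genes could be shared with close copies. Of all 100-base stretches in the canonical *ACTB* transcript, 0.175% occurred in a transcript of another gene, and none of those of *ACTG1* did. The actin-like copies listed in the files were low, with 53, 77, 109 and 175 counts for *POTEF* and 69, 71, 74 and 113 counts for *ACTG1P20* in control replicates 1 and 2 and sgUSP22 replicates 1 and 2, and 0 counts for *ACTBL2* in every library.

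*SRF* encodes the transcription factor itself and lies on the plus strand at chr6:43171269-43181506. It had 3841 and 4103 counts in control and 4384 and 4333 counts in sgUSP22. The 2 sgUSP22 values were slightly above both control values once scaled, at 66.9 CPM against 64.4 ± 1.96 CPM (SD, n = 2) in control. The log2 fold change was 0.06 (SE 0.046), about as large as the distance of 0.062 between the control libraries. *SRF*, with 2 CArG boxes in the stretch shown above, was thus the member of the set whose transcript was not lower, and its value was 0.18 with the GC and length correction.

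*TAGLN* encodes transgelin (SM22), an actin-binding protein of smooth muscle and a much-used reporter of MRTF and SRF activity, and lies on the plus strand at chr11:117199370-117207464. It had 797 and 636 counts in control and 256 and 147 counts in sgUSP22. The groups did not overlap, and the replicates were the least alike of the 10 genes, 0.36 log2 units apart in control and 0.77 in sgUSP22. The level was 11.6 ± 2.03 CPM (SD, n = 2) in control and 3.09 ± 1.14 CPM (SD, n = 2) in sgUSP22, 26.6% of control (log2 fold change -1.91, SE 0.23). Over fits that each left out 1 library, the value ran from -2.36 to -1.58. Of the 100-base stretches of its canonical transcript, 65.1% also occur in 1 overlapping gene on the same strand that is not listed in the files, and its exons overlap *PCSK7* on the other strand, a protease gene that was higher in sgUSP22 (31.0 CPM in control, 46.3 CPM in sgUSP22, log2 fold change 0.58, adjusted p = 7.49e-05 in the edgeR F-test). The strand setting of the counting is not given in the sources used here, so reads of these genes cannot be told apart with certainty.

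*TAGLN2*, the broadly expressed paralog of *TAGLN*, lies on the minus strand at chr1:159918107-159925507. Its counts were 20407 and 21871 in control and 19520 and 19146 in sgUSP22. The sgUSP22 values were the lower ones, with a small gap to control. The level was 343 ± 11.2 CPM (SD, n = 2) in control and 297 CPM in each sgUSP22 library, 86.6% of control (log2 fold change -0.21, SE 0.036), and -0.03 with the GC and length correction. For each *TAGLN* count there were 25.6 and 34.4 *TAGLN2* counts in control and 76.2 and 130 in sgUSP22, so the paralogs moved unequally within each library. The neuronal paralog *TAGLN3* was listed at 0 in all libraries.

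The 3 tropomyosin genes of the set, whose proteins wind along actin filaments, differed from each other. *TPM1*, on the plus strand at chr15:63042620-63071915, had 6751 and 6867 counts in control and 4741 and 4655 counts in sgUSP22. Replicates were nearly equal and the groups were well apart, at 110 ± 0.456 CPM (SD, n = 2) in control and 72.1 CPM in sgUSP22, 65.3% of control (log2 fold change -0.61, SE 0.040). The *TPM1* value was -0.56 with library size alone and -0.49 with the GC and length correction, under the 1.5-fold threshold in both. *TPM2*, on the minus strand at chr9:35681992-35690056, had 16806 and 17386 counts in control and 13169 and 12707 counts in sgUSP22. Its sgUSP22 libraries were both lower, with 277 ± 2.17 CPM (SD, n = 2) in control and 199 CPM in sgUSP22, 71.7% of control (log2 fold change -0.48, SE 0.034, and -0.28 with the GC and length correction).

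*TPM4*, the most abundant tropomyosin gene of the set per kilobase and located on the plus strand at chr19:16067021-16103002, had 55721 and 56693 counts in control and 58619 and 57074 counts in sgUSP22. Its scaled levels were close, 911 ± 3.59 CPM (SD, n = 2) in control and 888 CPM in sgUSP22, or 97.5% of control (log2 fold change -0.04, SE 0.029). The sgUSP22 libraries were lower by a margin that changed sign with library size alone (0.02) and with scaling to *GAPDH* (0.19). Among the summed counts of the 3 genes and *TPM3*, *TPM4* took 49.5% and 48.8% in control and 53.2% and 53.9% in sgUSP22. Of the same sum, *TPM2* took 14.9% and 15% in control and 12.0% in both sgUSP22 libraries. The remaining tropomyosin gene, *TPM3*, was lower, by less than *GAPDH* except with the GC and length correction (-0.31), with 33320 and 35292 counts in control and 33611 and 31417 counts in sgUSP22 (log2 fold change -0.16, SE 0.037, adjusted p = 0.00503 in the edgeR F-test).

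*FLNA* encodes filamin A, a large crosslinker of actin filaments, and lies on the minus strand at chrX:154348524-154374634. It had 242053 and 263593 counts in control and 187204 and 180669 counts in sgUSP22. Both sgUSP22 libraries were below both controls, and the control libraries differed from each other by 0.090 log2 units. The level was 4098 ± 181 CPM (SD, n = 2) in control and 2824 CPM in sgUSP22, 68.9% of control (log2 fold change -0.54, SE 0.032). Its value was -0.51 with the GC and length correction and -0.31 with scaling to *GAPDH*. Its paralog *FLNC*, the muscle filamin, was slightly higher (104 CPM in control, 116 CPM in sgUSP22, log2 fold change 0.16, adjusted p = 0.0236 in the edgeR F-test, and not past the threshold in 4 of the 11 other settings).

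*CFL1* encodes cofilin 1, which severs filaments and returns actin monomers to the pool, and lies on the minus strand at chr11:65823022-65862026. It had 39881 and 42846 counts in control and 32686 and 32240 counts in sgUSP22. The sgUSP22 libraries were both lower. The level was 670 ± 23.1 CPM (SD, n = 2) in control and 498 CPM in sgUSP22, 74.3% of control (log2 fold change -0.43, SE 0.034, and -0.25 with the GC and length correction). *DSTN*, which encodes the related protein destrin, was lower (499 CPM in control, 375 CPM in sgUSP22, log2 fold change -0.41, adjusted p = 6.92e-06), and the muscle cofilin *CFL2* was higher (114 CPM in control, 131 CPM in sgUSP22, log2 fold change 0.20, adjusted p = 0.00119, both by the edgeR F-test), although *CFL2* was at -0.07 with the GC and length correction. Exons of *CFL1* overlap *MUS81* and *SNX32* on the other strand. *SNX32* had 0 counts in every library. *MUS81* was higher in sgUSP22 (36.3 CPM in control, 44.5 CPM in sgUSP22, log2 fold change 0.295, adjusted p = 0.00184 in the edgeR F-test). With the strand setting not given, reads of *CFL1* and *MUS81* cannot be told apart with certainty.

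Per kilobase of canonical transcript, *ACTB* was the most abundant of the 10 genes in control, with 2977 ± 38.8 CPM per kilobase (SD, n = 2), followed by *ACTG1* with 1034 CPM per kilobase. Next came *CFL1* with 539 ± 18.6 and *FLNA* with 482 ± 21.2 CPM per kilobase, then *TPM4* with 368, *TAGLN2* with 249 and *TPM2* with 233 CPM per kilobase. *TPM1* (90.7), *SRF* (15.2) and *TAGLN* (3.07 CPM per kilobase) were the least abundant. In sgUSP22, *TPM4* with 359 ± 2.27 CPM per kilobase stood above *FLNA* with 332 ± 4.17 CPM per kilobase, the reverse of the order in control, and the other places in the order were the same. The GC content of the canonical transcripts ran from 47.0% for *TPM4* to 62.3% for *FLNA*.

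Slightly more neighbours of *ACTB* on chromosome 7 were lower than higher, and none was lower by as much as *ACTB*. Among the 29 other tested genes whose start lies within 2 Mb of that of *ACTB*, 16 were lower in sgUSP22, 1 was called lower and 2 were called higher, with a median log2 fold change of -0.06. Of all tested genes, 7.25% were called lower and 8.88% higher. Within 1 Mb, 14 of 23 neighbours were lower, with a median of -0.11. The nearest of them downstream in coordinates, at 0.066 Mb, was *FSCN1*, which encodes the filament-bundling protein fascin and was at -0.62. For the other 9 genes of the set, the neighbours within 2 Mb had medians between -0.19 for *TPM4* and 0.06 for *TAGLN2*, which were -0.06 and 0.19 within 1 Mb. The medians of the neighbours of *CFL1* (-0.18, 123 genes) and *ACTG1* (-0.12, 76 genes) were lower than those of *TPM1* (-0.02, 29 genes) and *SRF* (-0.01, 58 genes).

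**Figure D2:**
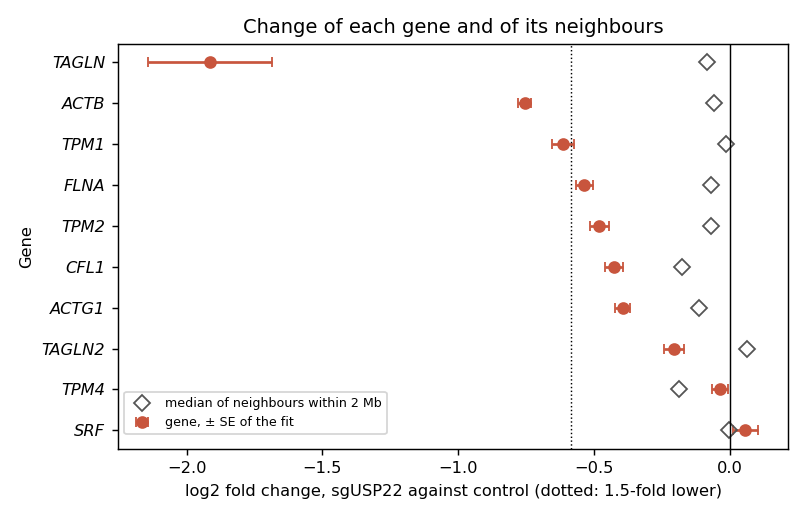
Log2 fold change of each gene in sgUSP22 against control (filled, ± SE of the fit) and the median of the tested genes within 2 Mb of it (open diamonds); the dotted line marks 1.5-fold lower. *TAGLN*, *ACTB* and *TPM1* lie beyond the line while the medians of the neighbours stay between -0.19 and 0.06, and the small negative value of *TPM4* turns positive with library size alone or scaling to *GAPDH*, as does that of *TAGLN2* with the latter.

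**Figure D3:**
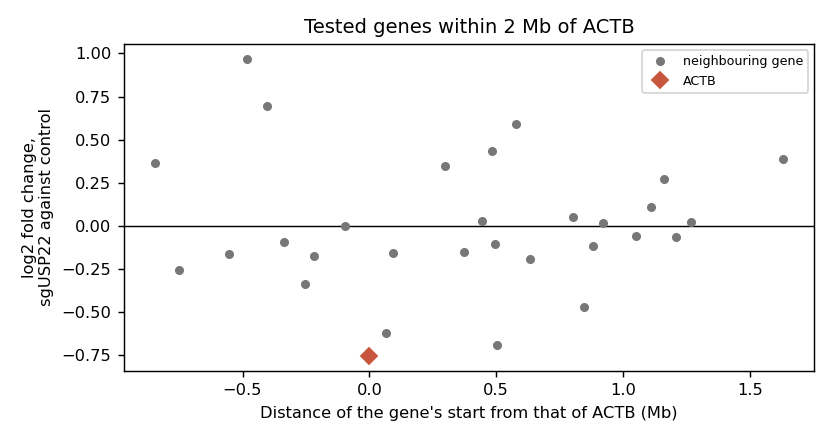
Log2 fold change in sgUSP22 against control of *ACTB* and of the 29 tested genes within 2 Mb, by distance of the gene's leftmost position from that of *ACTB*. *ACTB* is the lowest point at -0.76, *FSCN1* lies beside it at -0.62, and the others spread on both sides of 0.

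The boxes were set beside the differences for the 8 genes with a promoter entry, which do not include *TAGLN* and *ACTB*, the genes with the largest differences. The 4 genes with a CArG box (*ACTG1*, *SRF*, *TPM4*, *FLNA*) had a median log2 fold change of -0.22, and the 4 with a promoter entry but no box (*TAGLN2*, *TPM1*, *TPM2*, *CFL1*) had one of -0.45. Among the other tested genes with a promoter entry, the 169 with a box had a median of -0.04, with 8.28% called higher and 10.1% called lower. The 11182 without a box had a median of 0.01, with 9.05% called higher and 6.53% called lower. These are descriptions, with 4 genes on each side for the set.

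The other actin genes with enough counts to be tested were lower as well. Of 5 other actin isoforms, 3 were tested and all 3 were called lower, at low levels, with a median log2 fold change of -0.89. Of all tested genes, 7.25% were called lower. *ACTA2*, the smooth muscle α-actin and a classic MRTF target, had 739 and 783 counts in control and 465 and 393 counts in sgUSP22 (log2 fold change -0.91, SE 0.12, adjusted p = 0.000133 in the edgeR F-test). *ACTG2*, the enteric smooth muscle actin, was at -0.84 (SE 0.13, adjusted p = 0.000346) and the cardiac actin *ACTC1* at -0.89 (SE 0.20, adjusted p = 0.00369), by the same test. Skeletal *ACTA1* had at most 4 counts. The smooth muscle markers *DES* and *MYH11* had at most 73 counts in any library.

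Cytoskeletal genes known as MRTF and SRF targets followed the direction of the actins more often than not. Of 26 such genes outside the set, 25 were tested. Among them 21 were past the adjusted p-value on the lower side, 3 on the higher side and 1 on neither, with a median log2 fold change of -0.42, and 4 were called lower and 0 higher, where 25.8% of all tested genes were past the adjusted p-value on the lower side, 26.8% on the higher side and 7.25% were called lower. Most differences were thus under 1.5-fold, as in the set itself, and the count on the lower side was 19 to 21 over the 11 other settings. *FHL2*, a LIM-domain coactivator, was at -0.91 (294 CPM in control, 156 CPM in sgUSP22, adjusted p = 2.16e-07 in the edgeR F-test). *PDLIM7*, an actin-associated scaffold, was at -0.70 (adjusted p = 2.37e-06 in the same test), but at -0.47 and not called with the GC and length correction. The remaining called genes were *ACTA2* and, named after its value was seen, *CCN2* (connective tissue growth factor) at -0.69 (adjusted p = 5.9e-06). *LPP*, a focal adhesion protein, was higher at 0.32 (adjusted p = 0.000695), but was at -0.02 with the GC and length correction. The list also holds *TPM3*, *FLNC* and *DSTN*, given above beside their paralogs.

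The cofactors of SRF moved in both directions. The 2 MRTF genes differed in direction. *MRTFA* was at 50.3 CPM in control and 41.9 CPM in sgUSP22 (log2 fold change -0.26, adjusted p = 0.00194 in the edgeR F-test, and -0.15 with the GC and length correction), and *MRTFB* was at 34.9 and 43.6 CPM (0.32, adjusted p = 0.000829 in the same test, and 0.14 with adjusted p = 0.0712 with the GC and length correction). Of the TCF genes, *ELK1* did not pass (-0.07, adjusted p = 0.137) and *ELK4* was higher (92.2 CPM in control, 133 CPM in sgUSP22, log2 fold change 0.53, adjusted p = 3.92e-05, and 0.21 with the GC and length correction). The remaining TCF gene, *ELK3*, named after its value was seen, was lower (96.3 CPM in control, 76.2 CPM in sgUSP22, -0.34, adjusted p = 8.95e-05). *LIMK1*, the kinase that inactivates cofilin, was called lower at -0.68 (adjusted p = 4.5e-06) but not with the GC and length correction, and *ROCK1*, a kinase of actomyosin contraction, was at 0.53 (adjusted p = 2.32e-06, and 0.26 with that correction).

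**Figure D4:**
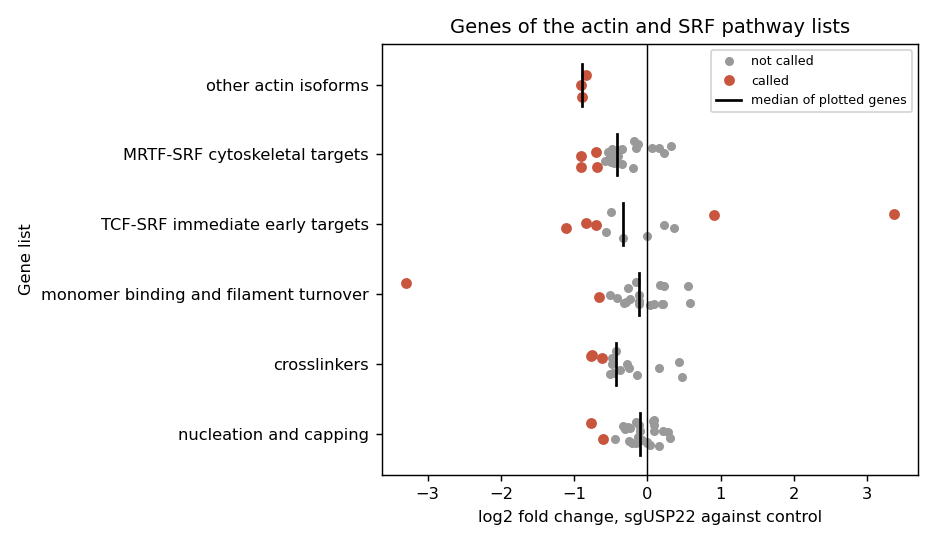
Log2 fold change in sgUSP22 against control of the tested genes of 6 lists that average at least 50 counts, with called genes in red and the median of the plotted genes as a black line. The actin isoforms, MRTF and SRF targets and crosslinkers sit mostly left of 0, whereas the immediate early genes spread from *JUN* at -1.12 to *EGR1* at 3.37.

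The immediate early genes, which SRF is known to drive with TCFs, were split in direction. Of 14 genes 12 were tested, with 5 past the adjusted p-value on each side, 3 called higher and 3 called lower, and a median of -0.17. Of all tested genes, 26.8% were past the adjusted p-value on the higher side and 25.8% on the lower side. The shares called higher and lower were 8.88% and 7.25%. *EGR1* had 1045 and 858 counts in control and 10574 and 10215 counts in sgUSP22. Both sgUSP22 libraries were far above the controls, at 160 ± 1.89 CPM (SD, n = 2) against 15.4 ± 2.39 CPM (SD, n = 2), a log2 fold change of 3.37 (SE 0.081, adjusted p = 3.12e-09 in the edgeR F-test). *FOS* had 2815 and 2722 counts in control and 5551 and 5480 counts in sgUSP22 (log2 fold change 0.92, SE 0.048, adjusted p = 4.68e-07 in the same test). The remaining gene called higher, *EGR2*, had 0 counts in both control libraries and 36 and 16 counts in sgUSP22. On the lower side were the AP-1 genes *JUN* at -1.12 (71.4 CPM in control, 32.9 CPM in sgUSP22, adjusted p = 1.15e-06) and *FOSL1* at -0.70 (adjusted p = 6.5e-05, not called with the GC and length correction), and the zinc finger gene *KLF6* at -0.84 (adjusted p = 7.91e-07). Between the groups, in which *EGR1* and *ACTB* stood in opposite directions, the *SRF* transcript differed by 0.06 on the log2 scale.

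**Figure D5:**
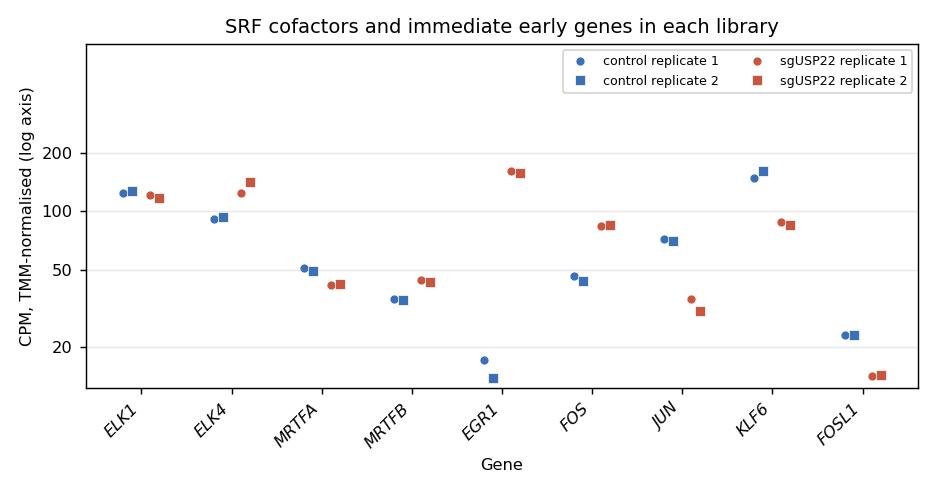
Level of SRF cofactor genes and immediate early genes in each library, in CPM scaled by TMM factors on a log axis, with control in blue and sgUSP22 in red. *EGR1* stands at 15.4 CPM in control and 160 CPM in sgUSP22, *JUN*, *KLF6* and *FOSL1* are lower, and the points of *ELK1* lie close together.

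Proteins that act on filaments beside filamin and cofilin were described by role. Of 18 crosslinkers, 15 were tested, of which 11 were past the adjusted p-value on the lower side and 3 on the higher side, 3 were called lower, and the median was -0.42, beside the same shares of all tested genes (25.8%, 26.8% and 7.25%). They were *PLS1* (plastin 1) at -0.77 (adjusted p = 2.66e-05), *ABLIM3* at -0.75 (adjusted p = 0.000606) and *FSCN1*, the neighbour of *ACTB*, at 535 CPM in control and 348 CPM in sgUSP22 (-0.62, adjusted p = 1.68e-06), all by the edgeR F-test. *FSCN1* was not called with library size alone (-0.57), with the GC and length correction (-0.44) or without control replicate 2. The scaffold *PALLD* was higher at 0.43 (adjusted p = 8.06e-06). Of 23 genes of monomer binding and filament turnover, 21 were tested, with a median of -0.11. Past the adjusted p-value were 11 on the lower side and 5 on the higher side, and 2 were called lower. Of all tested genes, 25.8% and 26.8% were past it on these sides, and 7.25% were called lower. *PFN1*, which encodes profilin and delivers monomers to growing filament ends, was the abundant gene called lower (1199 CPM in control, 761 CPM in sgUSP22, -0.66, adjusted p = 9.13e-07, but -0.43 and not called with the GC and length correction), and *SCIN* (scinderin) was called lower from 85 and 169 counts to 16 and 11 counts (adjusted p = 0.000133). *GMFB*, a factor that loosens branched filaments, was higher at 0.58 (adjusted p = 2.11e-06), just under 1.5-fold, and at 0.30 with the GC and length correction. Of 31 genes of nucleation and capping, 27 were tested, with a median of -0.11. Past the adjusted p-value were 12 on the lower side and 5 on the higher side, beside 25.8% and 26.8% of all tested genes. In this list 2 were called lower, a share close to the 7.25% of all tested genes. Their called genes were the formin *FMNL3* at -0.77 (adjusted p = 4.68e-05) and *EVL*, a factor of filament elongation, at -0.60 (adjusted p = 0.000625), whereas the formin *FMNL2* was at 0.28 (adjusted p = 0.00073, and 0.16 with the GC and length correction). *EVL* was not called with library size alone, with the GC and length correction, or without control replicate 2 or sgUSP22 replicate 2.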

How the data were processed

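RNA-seq counts of 4 HepG2 libraries were analysed. The authors used HISAT2 2.2.1 to map reads to hg38 and deposited whole-number gene counts from StringTie 2.2.1, not scaled to library size, and used DESeq2 1.34.0 for their own comparison. The annotation, strand setting and read length are not given in the sources used here. Columns were matched to libraries by name, with 0 left unmatched. The labels do not say whether replicates are separate cultures, so p-values measure only the spread between these libraries; replicate libraries were further apart than counting noise (mean chi-square per gene 7.91 in control and 8.44 in sgUSP22).

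The tests were run with edgeR 4.0.16 in R 4.3.3 (TMM factors, filterByExpr with a minimum count of 10, quasi-likelihood test over all 15150 tested genes, Benjamini-Hochberg adjustment). Calls needed an adjusted p-value below 0.05 and at least 1.5-fold, as in the study. Standard errors were derived from the fold change and the F statistic. The procedure was tested on simulated data. Alternatives were DESeq2 1.42.0, no filter, a minimum mean of 50 counts, scaling by library size alone or RLE factors, a replicate block, lowess correction for GC content and length (span 0.3), scaling to *GAPDH*, a neighbour window of 1 Mb, and leaving out each library. Positions, lengths and GC content came from GENCODE v44 (25763 of 28278 symbols matched, and 94.9% of tested genes had GC content and length). A count of 0 allows 3 counts, or 0.0463 to 0.0484 CPM scaled to library size alone.

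The genes and lists were chosen with earlier results of these data known. Named were all 10 genes of the set, up to 3 called genes per list and direction with the largest change, a mean of at least 50 counts and no overlap between groups (if none was called, the gene with the smallest adjusted p-value), and fixed paralogs, cofactors, immediate early genes and references. Genes in several lists count in each. Some items are not reported here.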

Additional observations from a re-analysis of the deposited data

How the results depend on the processing

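The median of the set, -0.45, was -0.40 with library size alone, -0.27 after the GC and length correction, -0.22 with scaling to *GAPDH* and -0.43 without *ACTB*, and ran from -0.48 to -0.44 with each library left out, where a lone library is assumed to vary like the other group. *TAGLN2* turned to 0.024 with scaling to *GAPDH*, and *TPM4* to 0.02 with library size alone and 0.19 with scaling to *GAPDH*. After the GC and length correction *LPP* turned to -0.023, *CFL2* to -0.07 and *ELK1* to 0.047. The median of the neighbours of *SRF* was 0.015 within 1 Mb. Calls in monomer binding and turnover were 2, then 4 with library size alone and 2 to 4 with each library left out. Those in nucleation and capping were 2, then 1 with library size alone, 1 after the GC and length correction and 1 to 2 with each library left out. Of all calls, 55.1% were higher, and 62.3% with library size alone, which raised the median of all genes to 0.05. Same-numbered libraries did not deviate together (correlation 0.042), and the labels do not say whether they were made together. With the replicate block, 1341 genes were called higher and 1100 lower, against 1345 and 1098, and no other call named here changed. The causes were not tested. With 2 libraries a group, the spread is estimated from few values, and changes of low genes such as *TAGLN* and *SCIN* carry the largest error.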
